A study of Mus musculus with 9 samples.

Results

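The proneural basic helix-loop-helix (bHLH) factors are transcription factors that start and carry forward the formation of neurons. The 5 genes described here are Neurog1, Neurog2, Atoh1, Neurod1 and Neurod4, and they were taken as every probe set annotated to exactly 1 of these symbols. That gave 8 of the 22690 probe sets on the array: 2 each for Neurog1, Neurod1 and Neurod4, and 1 each for Neurog2 and Atoh1. The rule itself reads only annotation, although the genes were picked with earlier results of these data known.

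RNA came from whole mouse embryos at 9.5 days post coitum and was hybridised to 9 Affymetrix arrays in 5 groups. Both Notch1 null arrays were of embryos homozygous for the targeted allele Notch1tm1Con (Notch1tm1Con/tm1Con), and the single Notch1 het array was of Notch1tm1Con/+. Both Dll3 het arrays were Dll3neo/+, both Dll3 null arrays Dll3neo/neo, and both wild type arrays +/+ at either locus. The strain C57BL/6J is named for 1 Notch1 null array only, and the labels do not say whether embryos were pooled or came from separate litters, and a p-value therefore covers nothing beyond how these particular arrays vary, which may be technical. The alleles are present in every cell of the embryo, and whole embryos cannot tell fewer cells of a type from less RNA per cell.

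In vertebrate neural tissue, Neurog1, Neurog2 and Atoh1 act early, when a progenitor is set on the path to a neuron, and Neurod1 and Neurod4 act later, as that cell differentiates. All bind E-box DNA as dimers with E proteins such as Tcf3. Proneural factors turn on the Notch ligand gene Dll1, and Notch signal received by a neighbouring cell turns on Hes repressors, which hold proneural genes down there. The comparison of null with control embryos asks how the receptor Notch1 and the ligand Dll3 bear on these transcripts.

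The promoter windows are shown for the 4 genes with a probe set called in Notch1 null against wild type. Each runs from 250 bases before to 50 bases after a transcription start (RefSeq, GRCm38.p6). Capitals mark any match, on either strand, to the E-box CANNTG, the N-box CACNAG to which Hes factors bind, or TGGGAA, the core of the Rbpj site through which Notch acts.
Neurog2, chr3:127632886-127633185, plus strand: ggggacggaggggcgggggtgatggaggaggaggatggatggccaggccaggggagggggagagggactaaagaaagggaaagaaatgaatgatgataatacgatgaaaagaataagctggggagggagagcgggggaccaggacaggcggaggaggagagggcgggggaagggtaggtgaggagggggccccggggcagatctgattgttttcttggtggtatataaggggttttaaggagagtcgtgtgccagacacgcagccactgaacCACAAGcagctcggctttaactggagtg
Neurog1, chr13:56252131-56252430, minus strand: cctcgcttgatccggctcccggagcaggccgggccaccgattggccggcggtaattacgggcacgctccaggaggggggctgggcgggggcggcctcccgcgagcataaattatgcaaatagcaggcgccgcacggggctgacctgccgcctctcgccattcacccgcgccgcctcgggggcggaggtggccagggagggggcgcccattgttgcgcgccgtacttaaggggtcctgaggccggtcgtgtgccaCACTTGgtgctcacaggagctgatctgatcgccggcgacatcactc
Neurod1, chr2:79456587-79456886, minus strand: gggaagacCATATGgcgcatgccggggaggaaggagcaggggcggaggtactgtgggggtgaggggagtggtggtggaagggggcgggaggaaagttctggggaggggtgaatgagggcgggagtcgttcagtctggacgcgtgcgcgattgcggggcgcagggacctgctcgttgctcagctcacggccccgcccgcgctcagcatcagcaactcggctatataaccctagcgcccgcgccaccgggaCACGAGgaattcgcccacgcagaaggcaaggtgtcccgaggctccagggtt
Neurod4, chr10:130280205-130280504, minus strand: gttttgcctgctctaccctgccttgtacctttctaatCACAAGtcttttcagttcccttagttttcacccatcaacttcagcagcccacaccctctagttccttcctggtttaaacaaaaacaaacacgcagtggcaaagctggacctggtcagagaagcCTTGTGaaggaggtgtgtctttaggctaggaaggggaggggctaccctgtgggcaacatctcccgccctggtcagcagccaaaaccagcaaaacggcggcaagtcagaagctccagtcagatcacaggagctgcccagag
Neurog2 held 1 N-box, Neurog1 held 1 E-box, Neurod1 held 1 of each and this Neurod4 window held 2 N-boxes; no matches overlapped. A second Neurod4 window, from a start further downstream, held 1 E-box and 1 N-box, and the Atoh1 window held 1 N-box. The Rbpj core was in 0 of these 6 windows. Of all 32851 promoter windows of this length, 72.3% held an E-box, 42.5% an N-box and 25.6% the Rbpj core, so these letters are common and a match is no more than a description.

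Levels are the deposited linear ratios, in which each probe set was divided by a number of its own. For all but 1 member probe set, described below, a ratio of 1 is the median of the 9 arrays. A level can be compared between arrays but not between genes, and it does not show whether a transcript was detected. The targeted genes do not check the labels, since the probes' place relative to the altered sequence is not given here. Notch1 ratios were 1.47 and 1.69 at probe set 1418633_at in the arrays labelled Notch1 null and 0.752 to 1.08 in the other 7. The Dll3 ratio was 0.804 and 0.933 in Dll3 null and 0.981 to 1.16 in the rest. The added control RNA dap, averaged over its probe sets, was 0.382 to 0.421 in the Dll3 arrays, 1.00 in Notch1 het, 5.41 and 2.68 in Notch1 null, and 7.07 and 9.91 in wild type. No group overlapped wild type in it, and the Notch1 het array lay below both Notch1 null arrays. How the samples were prepared and the genotype therefore cannot be told apart in any comparison with wild type. The same holds between Notch1 and Dll3 arrays, and between Notch1 null and Notch1 het. Control probe sets at the 3' end of Actb differed from those at the 5' end by -0.11 to 0.16 on the log2 scale. Xist stood above Eif2s3y, a female pattern, in replicate 1 of every group but wild type, where both arrays had the male pattern.

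Neurog2, which in the mouse drives neurogenesis in the spinal cord, sensory ganglia and forebrain, had the clearest pattern. Its ratio at 1422839_at was 0.638 and 0.662 in Notch1 null, 0.741 in Notch1 het, and 1.41 and 1.28 in wild type. It was 1.29 and 1.09 in Dll3 het, and 0.984 and 1.00 in Dll3 null. All 3 Notch1 arrays lay below all 6 others, a split whose share over all tested probe sets was not counted. Only Dll3 het overlapped wild type.

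Neurog1, which in the mouse specifies cranial sensory neurons fed by placodes, differed between its probe sets. At 1438551_at the ratio was 1.38 and 1.32 in wild type, above every other array. It was 0.865 in Notch1 het, 0.828 and 1.00 in Notch1 null, 1.02 and 0.982 in Dll3 het, and 1.10 and 0.996 in Dll3 null. The Notch1 and Dll3 arrays overlapped here. At 1450836_at the ratios ran from 0.809 to 1.15, and the wild type arrays (0.967 and 1.15) marked out a range that took in at least 1 array of every other group.

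Atoh1, needed in the mouse for dorsal spinal interneurons and cerebellar granule cells, varied within groups about as much as between them. Its ratio at 1449822_at was 1.01 and 1.07 in wild type, 1.00 in Notch1 het, 0.755 and 0.987 in Notch1 null, 0.963 and 1.25 in Dll3 het, and 1.05 and 0.822 in Dll3 null. The Notch1 null arrays lay below wild type but were parted from each other by 0.39 on the log2 scale. The replicates of both Dll3 groups were parted by as much, 0.37 and 0.35.

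Neurod1, a differentiation factor of new neurons, fell furthest at 1 probe set. The ratio at 1426412_at was 0.498 and 0.604 in Notch1 null, 0.765 in Notch1 het, and 1.35 and 1.04 in wild type. The Dll3 arrays lay between 0.999 and 1.13. All 3 Notch1 arrays were again below all 6 others, the split whose share was not counted. The wild type arrays were parted by 0.38 on the log2 scale. At 1426413_at the ratio was 1.27 and 1.11 in wild type, 0.882 in Notch1 het, 0.985 and 0.988 in Notch1 null, and 0.898 to 1.26 in the Dll3 arrays, so the Notch1 het array, not the nulls, was lowest.

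Neurod4, which acts with other proneural genes in neuronal commitment, had 1 variable and 1 flat probe set. The ratio at 1418054_at was 1.52 and 0.972 in wild type, the widest replicate gap of any member (0.64 on the log2 scale). It was 0.773 in Notch1 het, 0.667 and 0.617 in Notch1 null, 1.21 and 1.23 in Dll3 het, and 1.13 and 1.00 in Dll3 null. The 3 Notch1 arrays were below all others here as well, again without a count of the share over all tested probe sets. At 1418055_at all 9 ratios lay between 0.828 and 0.936. This was the only member with a median below 1 (0.859), a trait of 2824 probe sets on the array that may have been divided by a floor, and its range over the arrays (0.18 on the log2 scale) exceeded that of only 1.5% of tested probe sets.

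**Figure D1:**
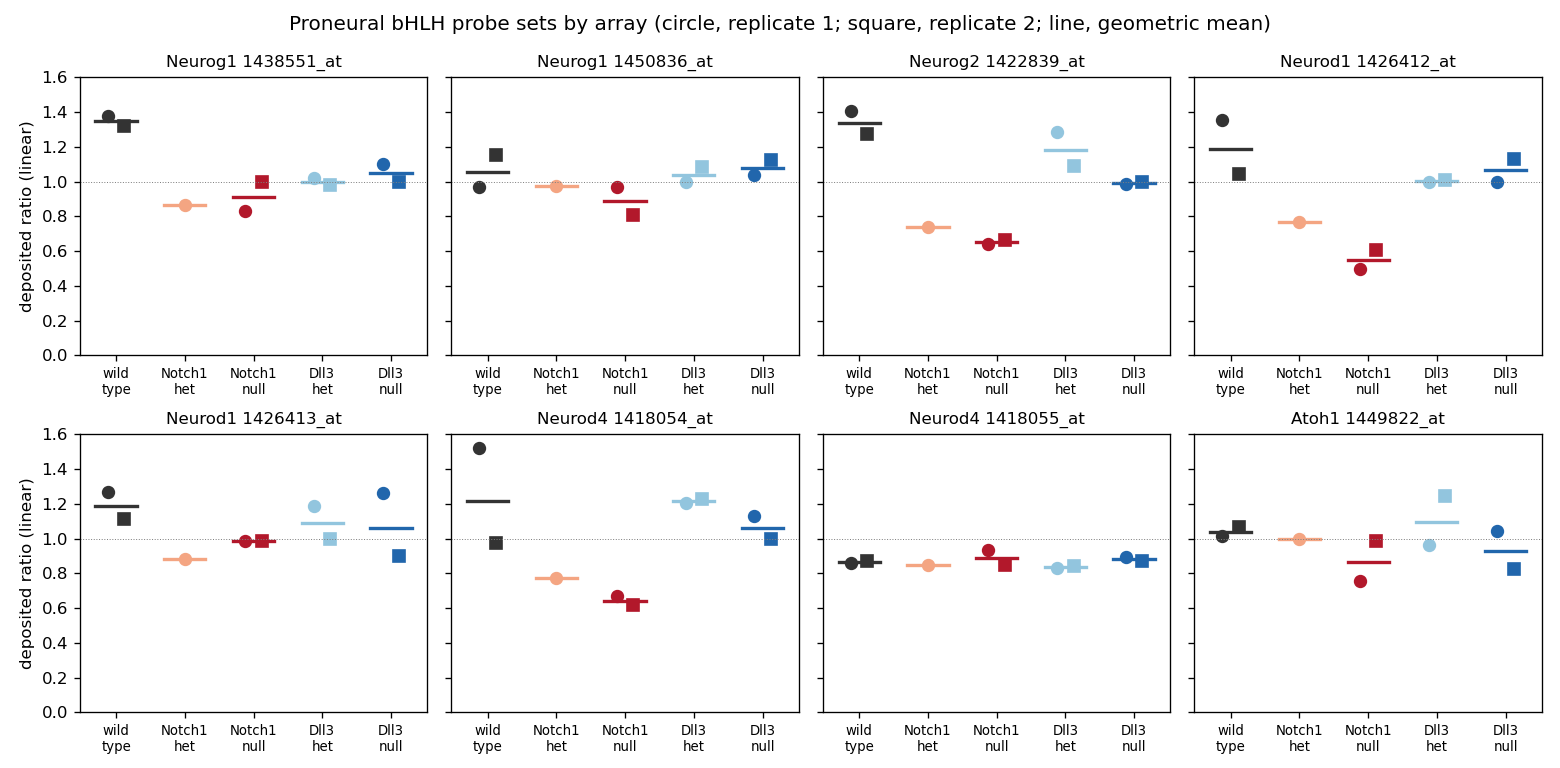
Deposited ratio (linear axis from 0) of each of the 8 probe sets in every array, by genotype group; circles are replicate 1, squares replicate 2 and lines geometric means. Neurog2 1422839_at, Neurod1 1426412_at and Neurod4 1418054_at have their 3 Notch1 arrays below the 6 others, while Neurod4 1418055_at stays between 0.828 and 0.936. The share of all tested probe sets with this split was not counted.

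Notch1 null embryos had lower levels of 4 of the 5 proneural genes than wild type. Neurog2 fell 2.06-fold (log2 -1.04 ± 0.12 SE, adjusted p = 0.00194, 2 against 2 arrays, limma with Benjamini-Hochberg adjustment over 22626 probe sets). Neurod1 fell 2.17-fold at 1426412_at (log2 -1.12 ± 0.15, limma adjusted p = 0.00409). Neurod4 fell 1.89-fold at 1418054_at (log2 -0.92 ± 0.18, limma adjusted p = 0.0161), and Neurog1 1.48-fold at 1438551_at (log2 -0.57 ± 0.12, limma adjusted p = 0.0201). The direction was that of both Notch1 null arrays against both wild type arrays in each case.

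The other probe sets of these genes did not pass. The log2 difference was -0.25 ± 0.13 SE at Neurog1 1450836_at (limma adjusted p = 0.295), -0.27 ± 0.16 at Neurod1 1426413_at (0.383) and 0.042 ± 0.10 at Neurod4 1418055_at (0.867). Atoh1 had -0.27 ± 0.18 (limma adjusted p = 0.415), with an interval of -0.67 to 0.13, and a fall of the size seen for Neurog1 lies within it.

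In all, 4 of 8 member probe sets were lower and 0 higher, where 9.45% of all tested probe sets passed in either direction. The median log2 difference was -0.42 over the members and -0.030 over all tested probe sets. Both Notch1 null arrays lay below both wild type arrays at 6 of 8 member probe sets and at 34.0% of all tested. With probe sets averaged per gene, the same 4 genes passed: Neurog2 at log2 -1.04 ± 0.11 SE, Neurod1 at -0.69 ± 0.12, Neurod4 at -0.44 ± 0.12 and Neurog1 at -0.41 ± 0.088, with limma adjusted p of 0.000876 to 0.0383. Atoh1 did not (limma adjusted p = 0.371).

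The calls differed in how much they leaned on single arrays. Neurog2 and Neurod1 1426412_at passed in each of 18 alternatives at the same threshold, with an adjusted p of at most 0.0298 and 0.0345 by limma. The Neurog1 call ended when any of the 4 wild type and Notch1 null arrays was left out (limma adjusted p of 0.0520 to 0.112). The Neurod4 call ended without either Notch1 null array (0.0701 and 0.127) or wild type replicate 1, where its log2 difference was -0.60 (limma adjusted p = 0.0638). It was 0.0502 with only the groups compared fitted, and likewise with only the wild type and Notch1 arrays. An exact permutation test of 2 against 2 arrays cannot go below p = 0.333, so these calls rest on the spread shared across all probe sets and groups.

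**Figure D2:**
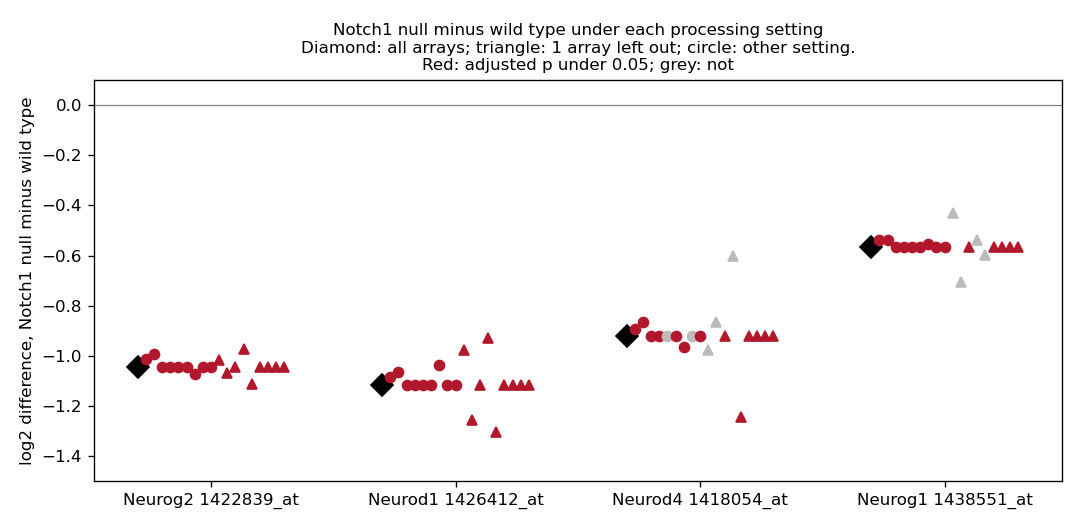
Log2 difference between Notch1 null and wild type for the 4 changed probe sets under each processing setting; diamonds use all arrays, triangles leave out 1 array, circles are other settings, and grey marks an adjusted p of 0.05 or more. Neurog2 1422839_at stays between -1.11 and -0.97, while Neurod4 1418054_at ranges from -1.24 to -0.60.

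The single Notch1 het array also had low proneural levels. Neurog2 was 1.81-fold lower than wild type (log2 -0.85 ± 0.14 SE, limma adjusted p = 0.0219). It was the only 1 of 8 member probe sets to pass, where 2.76% of all tested probe sets did. Neurog1 1438551_at (log2 -0.64 ± 0.15, limma adjusted p = 0.0565), Neurod4 1418054_at (-0.65 ± 0.22, 0.152) and Neurod1 1426412_at (-0.64 ± 0.18, 0.101) did not. The median over the 8 members was -0.53, against 0.0050 over all tested. The error here is borrowed from the other groups, and the Neurog2 call ended without either wild type array (limma adjusted p = 0.0868 and 0.0902), with embryo sex in the fit (0.0777), after quantile normalization (0.0517) and with only these 2 groups fitted (0.135).

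Going from the Notch1 het array to the null arrays, 0 of 8 member probe sets passed by limma, where 1.78% of all tested did, and the unadjusted p was under 0.05 for 1 member. That was Neurod1 1426412_at, at log2 -0.48 ± 0.18 SE (limma adjusted p = 0.220). Neurog2 differed by -0.19 ± 0.14, with an interval of -0.51 to 0.13, Neurod4 1418054_at by -0.27 ± 0.22 and Neurog1 1438551_at by 0.073 ± 0.15. The Neurog2 difference between 1 and 2 targeted alleles was not resolved by these 3 arrays. The dap control was 1.00 in Notch1 het and 5.41 and 2.68 in Notch1 null, so preparation and genotype cannot be told apart here.

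**Figure D3:**
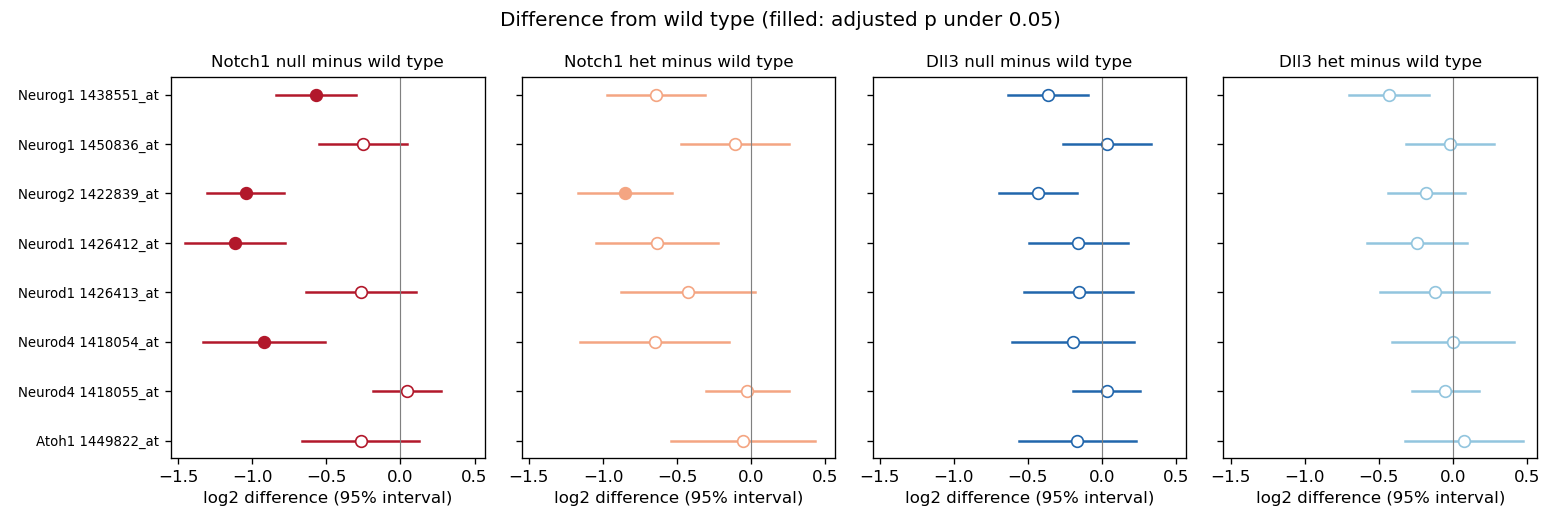
Log2 difference from wild type with its 95% interval for the 8 probe sets in each of 4 comparisons that share the same wild type arrays; filled points have an adjusted p under 0.05. There are 4 filled points for Notch1 null, 1 for Notch1 het (Neurog2) and 0 in both Dll3 groups.

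Dll3 embryos showed smaller differences, none of which passed. In Dll3 null against wild type 0 of 8 member probe sets passed by limma, where 0.0884% of all tested did, and the unadjusted p was under 0.05 for 2 members. These were Neurog2 (1.35-fold lower, log2 -0.43 ± 0.12 SE, limma adjusted p = 0.259) and Neurog1 1438551_at (1.29-fold lower, log2 -0.37 ± 0.12, limma adjusted p = 0.345). In both, the Dll3 null arrays lay below both wild type arrays. That held for 2 of 8 member probe sets and for 19.9% of all tested. Neurod1 1426412_at differed by -0.16 ± 0.15, with an interval of -0.50 to 0.18, and Neurod4 1418054_at by -0.19 ± 0.18. The median over the members was -0.16, against 0.0065 over all tested.

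In Dll3 het against wild type 0 of 8 passed by limma, where 0.486% of all tested did, and the unadjusted p was under 0.05 for 1. That was Neurog1 1438551_at, at log2 -0.43 ± 0.12 SE (limma adjusted p = 0.126), while Neurog2 stood at -0.18 ± 0.12 and Neurod4 1418054_at at 0.00042 ± 0.18. Between Dll3 null and Dll3 het 0 of 8 passed by limma, with 0 at an unadjusted p under 0.05, where 0% of all tested passed. Neurog2 had the lowest p there, at -0.25 ± 0.12 (limma adjusted p = 0.897).

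Set directly against each other, Notch1 null was called lower than Dll3 null at 2 of 8 member probe sets, where 5.74% of all tested passed. Both Notch1 null arrays lay below both Dll3 null arrays at 4 of 8, and at 35.9% of all tested. Neurod1 1426412_at was 1.94-fold lower (log2 -0.96 ± 0.15 SE, limma adjusted p = 0.0104) and Neurog2 1.53-fold lower (log2 -0.61 ± 0.12, limma adjusted p = 0.0190). Neurod4 1418054_at was just outside the threshold (log2 -0.73 ± 0.18, limma adjusted p = 0.0507) and passed in 6 of 17 alternatives. Neurog1 1438551_at (-0.20 ± 0.12) and Atoh1 (-0.10 ± 0.18) did not pass. Both calls ended without either Notch1 null array (limma adjusted p of 0.0642 to 0.120) and with only these 2 groups fitted (0.0716 and 0.0745). The Neurog2 call also ended without either Dll3 null array. The dap control was 2.68 and 5.41 in Notch1 null and 0.382 to 0.404 in Dll3 null, and preparation and genotype cannot be told apart here either.

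The 3 probe sets that fell furthest in Notch1 null had Notch1 het and then Notch1 null at the bottom. The order of the other groups differed between them. A low place for Notch1 null follows from how these probe sets were picked. For Neurog2 it ran from wild type through Dll3 het, Dll3 null and Notch1 het to Notch1 null, and no step between neighbours passed. The largest was from Dll3 null to Notch1 het (log2 -0.42 ± 0.14 SE, limma adjusted p = 0.210). For Neurod1 1426412_at it ran from wild type through Dll3 null, Dll3 het and Notch1 het to Notch1 null, the step from Dll3 het to Notch1 het being -0.39 ± 0.18 (limma adjusted p = 0.320). For Neurod4 1418054_at Dll3 het and wild type shared the top, followed by Dll3 null, Notch1 het (-0.46 ± 0.22 from Dll3 null, limma adjusted p = 0.392) and Notch1 null.

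Across the 9 arrays, log2 levels of Neurog2 went with those of Neurod1 1426412_at and of Neurod4 1418054_at (Pearson 0.91 for each, as a description over arrays that share genotype, preparation and litter to an unknown extent). The 3 Notch1 arrays make up the low end of both relations. Neurog1 1438551_at went with them less closely (0.79 with Neurog2, 0.73 with Neurod1 1426412_at and 0.64 with Neurod4 1418054_at). Probe sets of 1 gene went together less: 0.26 for Neurog1, 0.47 for Neurod1 and -0.33 for Neurod4. Over the arrays, the log2 range was 1.14 for Neurog2, 1.44 for Neurod1 1426412_at and 1.30 for Neurod4 1418054_at, where the median of all tested probe sets was 0.52 and the 90th percentile 0.91.

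**Figure D4:**
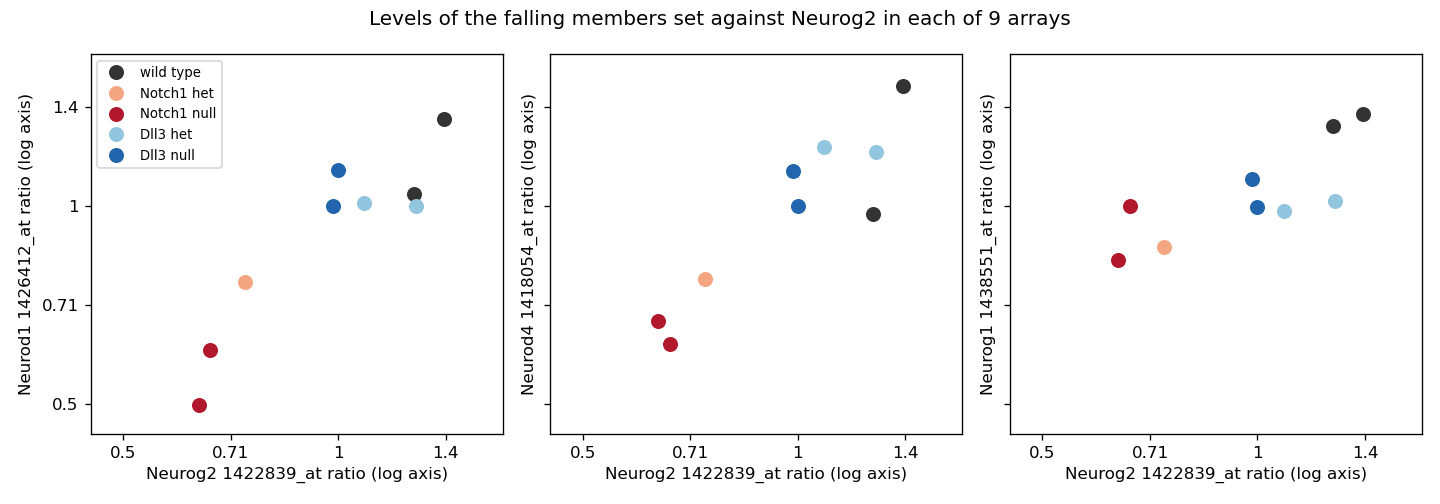
Ratio of Neurod1, Neurod4 and Neurog1 (1 probe set each) against that of Neurog2 in the 9 arrays, on log axes, coloured by genotype. The 3 Notch1 arrays form the low end in the first and second panels, where Pearson correlation of the log2 ratios is 0.91 in each.

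The probe sets most like each member in pattern were found by Pearson correlation of log2 ratios over the 9 arrays, among probe sets of other genes. They were Uqcrq (0.99), Ftsj1 (0.99) and Shkbp1 (0.98) for Neurog2, and Srp14 (0.98), Tdrd3 (0.97) and Lrrn1 (0.97) for Neurod1 1426412_at. For Neurod4 1418054_at they were Aatf (0.97), Fabp7, the brain fatty acid binding protein (0.96), and Mrps23 (0.96), and for Neurog1 1438551_at Ogfrl1 (0.99), the forebrain factor Fezf2 (0.98) and Unc50 (0.97). Atoh1 was most like Npdc1 (0.94), Ceacam12 (0.94) and Tgm1 (0.94). With 9 arrays and 22626 probe sets, values this near 1 were found for every member, also those that did not pass: Tgfa reached 0.94 with Neurod4 1418055_at, Nufip1 0.98 with Neurod1 1426413_at and Itih3 0.97 with Neurog1 1450836_at.

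Of 10 other bHLH factors of the nervous system measured, 1 fell in Notch1 null against wild type and 0 rose, which is near the share of all tested probe sets that passed (9.45%), with a median over genes of -0.077 on the log2 scale. The member that fell was Olig2, which specifies motor neuron and oligodendrocyte progenitors, with ratios of 0.669 and 0.617 in Notch1 null, 1.50 and 1.00 in wild type and 0.995 to 1.35 in the others (log2 -0.93 ± 0.18 SE, limma adjusted p = 0.0134). The Olig2 call ended without either Notch1 null array or wild type replicate 1 (limma adjusted p up to 0.113). Nhlh1, a bHLH factor of newly formed neurons, was lower in both null arrays but just missed the threshold (log2 -0.54 ± 0.15, limma adjusted p = 0.0518). Relatives of the members, Neurod2 (0.033 ± 0.11), Neurod6 (-0.066 ± 0.12) and both Neurog3 probe sets (-0.049 ± 0.098 and -0.034 ± 0.10), did not pass.

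Of the E proteins that pair with the members, 1 of 3 fell in Notch1 null, at 3 of 11 probe sets, where 9.45% of all tested passed. Tcf3 was lower at all 3 of its probe sets (log2 -0.63 ± 0.12, -0.70 ± 0.14 and -0.69 ± 0.14 SE, limma adjusted p of 0.0129 to 0.0172), with ratios at 1426297_at of 0.678 and 0.827 against 1.15 and 1.16. All 3 calls ended without Notch1 null replicate 1 or without either wild type array (limma adjusted p up to 0.113). In the Notch1 het array that Tcf3 ratio was 1.11, near wild type, unlike Neurog2 in the same array. Of the 6 Tcf4 and 2 Tcf12 probe sets none passed by limma, and the unadjusted p was under 0.05 for 1, Tcf12 1421908_a_at (log2 0.42 ± 0.13).

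Of 8 Hes and Hey genes, which are mostly repressors of the members, 3 fell in Notch1 null against wild type (Hes5, Hes6 and Heyl). Of the rest, 0 rose and 5 did not pass (median over genes -0.22). By probe set 5 of 12 were lower, where 9.45% of all tested passed. Hes5, which Notch turns on in neural progenitors, had ratios at 1423146_at of 0.493 and 0.428 in Notch1 null, 0.772 in Notch1 het, 1.52 and 1.47 in wild type and 0.873 to 1.12 in the Dll3 arrays. Hes6, which is itself raised by proneural factors and counters Hes1, had 0.676 and 0.731 in Notch1 null against 1.36 and 1.40 in wild type at 1436050_x_at (log2 -0.98 ± 0.11 SE, limma adjusted p = 0.00194). Hes1 did not pass (log2 -0.18 ± 0.13, limma adjusted p = 0.459). Of the 4 Id genes, whose products tie up E proteins, Id1 (log2 -0.66 ± 0.11), Id3 (-0.52 ± 0.12) and Id4 (-0.86 to -1.35 at 3 probe sets) fell and Id2 did not pass.

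In Notch1 het against wild type Hes5 (log2 -0.95 ± 0.14 SE at 1423146_at), Id4 and Id1 fell and no E protein passed. The Hes5 call ended without either wild type array, with embryo sex in the fit and with only these groups fitted. The Id4 calls held in 8 to 14 of 17 alternatives by probe set, and each ended without either wild type array. The Id1 call held in 3 of 17 alternatives. In Dll3 het Hes5 (-0.68 ± 0.12, limma adjusted p = 0.0491) and Id4 (-0.999 ± 0.144 at 1450928_at, 0.0350) fell, but these calls held in only 4 and 9 of 17 alternatives and ended with embryo sex in the fit. In Dll3 null Hes5 stood at -0.46 ± 0.12 (limma adjusted p = 0.236) and did not pass. Between Notch1 null and Notch1 het, where 0 proneural probe sets passed, Hes5 was lower in the nulls (-0.75 ± 0.14, limma adjusted p = 0.0417), as was Tcf3 at 1 of its 3 probe sets (-0.85 ± 0.17 at 1452542_x_at, 0.0443), and these calls held in 4 and 6 of 17 alternatives. Against Dll3 null, where 5.74% of all tested passed, Notch1 null was lower for Hes5, Hes6 and Heyl, at 4 of 12 probe sets. It was also lower for Id1, Id3 and Id4, at 3 of 8, and for Tcf3, at 2 of 11 E protein probe sets. These are as many genes of each list as against wild type, but fewer probe sets. The Heyl, Id3 and Id4 calls held in 7, 10 and 9 of 17 alternatives and the Tcf3 calls in 5 and 13. Those for Hes5, Hes6 and Id1 held in 13 to 16.

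Of 5 Notch ligand genes measured (Dll1, Dll3, Dll4, Jag1, Jag2), 0 passed in Notch1 null against wild type by limma, with 1 of 8 probe sets, for Jag1, at an unadjusted p under 0.05. Between Notch1 null and Dll3 null Jag1 was lower at 1 of 2 probe sets (log2 -0.75 ± 0.19 SE at 1421106_at, limma adjusted p = 0.0471), a call that held in 6 of 17 alternatives. Dll1, which proneural factors turn on, had ratios of 0.885 and 0.990 in Notch1 null and 0.954 and 0.948 in wild type (log2 -0.023 ± 0.12 SE, limma adjusted p = 0.943).

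Of 21 measured genes that act downstream of proneural factors or mark new neurons, 11 fell in Notch1 null against wild type. Of the rest, 0 rose and 10 did not pass, and the median over genes was -0.49 on the log2 scale. By probe set 17 of 41 were lower, where 9.45% of all tested passed. Those of lowest p were the neuronal cytoskeleton genes Stmn2 (-1.55 ± 0.16 SE at 1423281_at), Tubb3 (-2.07 ± 0.22) and Dcx (-1.08 ± 0.13 at 1418141_at) and the RNA binding protein gene Elavl4 (-0.71 ± 0.11 at 1428741_at), each with a limma adjusted p of at most 0.00693. At 1418141_at, but at no other of its probe sets, Dcx also fell in Dll3 null against wild type (log2 -0.97 ± 0.13, limma adjusted p = 0.0403). It was the only gene of this list to do so. Its ratios there were 0.825 and 1.00 against 1.72 and 1.83, and the call held in 6 of 17 alternatives. In Dll3 het Ebf1, a factor of differentiating neurons, was lower at 1416302_at (log2 -0.93 ± 0.12 SE, limma adjusted p = 0.0283). The ratios were 0.641 and 0.640 against 1.20 and 1.25, and the call held in 8 of 16 alternatives. At the other Ebf1 probe sets, 1416301_a_at and 1448293_at, the Dll3 het arrays overlapped wild type. In Notch1 het 5 of the 21 were lower and 0 higher, at 8 of 41 probe sets, where 2.76% of all tested passed. All of these Notch1 het calls ended when either wild type array was left out. Between Notch1 null and Dll3 null 3 genes were lower, at 4 of 41 probe sets, where 5.74% of all tested passed.

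Of 11 sensory ganglion and placode genes 2 fell in Notch1 null, the neurofilament genes Nefm (log2 -1.29 ± 0.18 SE) and Nefl (-1.45 ± 0.22). That is 2 of 23 probe sets, near the share of all tested that passed (9.45%). Isl1 (-0.37 ± 0.14 at 1450723_at) and Runx3 (-0.23 ± 0.098), transcription factors of sensory neurons, were next by p and did not pass. Of 14 neural progenitor markers 5 fell and 2 rose, at 8 and 2 of 25 probe sets, where 9.45% of all tested passed. Those that fell were Fabp7, Sox3, Pou3f3, Pax3 and Pax6. The Pax3 calls held in 9 and 14 of 18 alternatives. Pax6 passed at only some of its probe sets, 1419271_at and 1425960_s_at, and these calls held in 12 and 8 of 18. Those that rose were Gli3, a call that held in 7 of 18 alternatives, and Notch1 itself. Notch1 is the targeted gene, and its probes' place relative to the altered sequence is not given here.

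Lists of other tissues moved in the same arrays. Against wild type, 4 of 6 somite markers fell in Notch1 null, 2 of 7 heart markers and 2 of 6 endothelial markers rose, 0 of 6 blood markers passed by limma (0 with an unadjusted p under 0.05), and 1 of 6 endoderm markers, Sox17, rose. Over the whole array 9.45% of tested probe sets passed in this comparison, in either direction. Of 12 genes of the response to low oxygen, 11 rose. Their mean log2 ratio was 1.32 and 1.56 in the Notch1 null arrays and -0.29 to -0.0043 in the other 7; their part in the proneural differences was not tested. In the single Notch1 het array that mean was -0.11. There 2 of the 12 genes passed, both higher than wild type, at 4 of 22 probe sets, where 2.76% of all tested passed.

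As a mean over the 5 proneural genes, the log2 ratio was -0.41 and -0.32 in Notch1 null, -0.23 in Notch1 het, 0.26 and 0.15 in wild type, 0.088 and 0.10 in Dll3 het, and 0.062 and -0.058 in Dll3 null. The 3 Notch1 arrays were the lowest of the 9 and the wild type arrays the highest. The same was true of the list of downstream genes, at -0.36, -0.24 and -0.23 in the Notch1 arrays and 0.25 and 0.21 in wild type. It was also true of the neural progenitor markers, at -0.26, -0.27 and -0.17 against 0.10 and 0.053. The low place of the Notch1 arrays was not particular to these lists. They were also lowest for the Hes and Hey genes (-0.42, -0.39 and -0.21) and the Id genes (-0.37, -0.38 and -0.33). The other neural bHLH factors and the sensory ganglion and placode genes had them lowest too. In none of these further lists were both wild type arrays the highest.

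**Figure D5:**
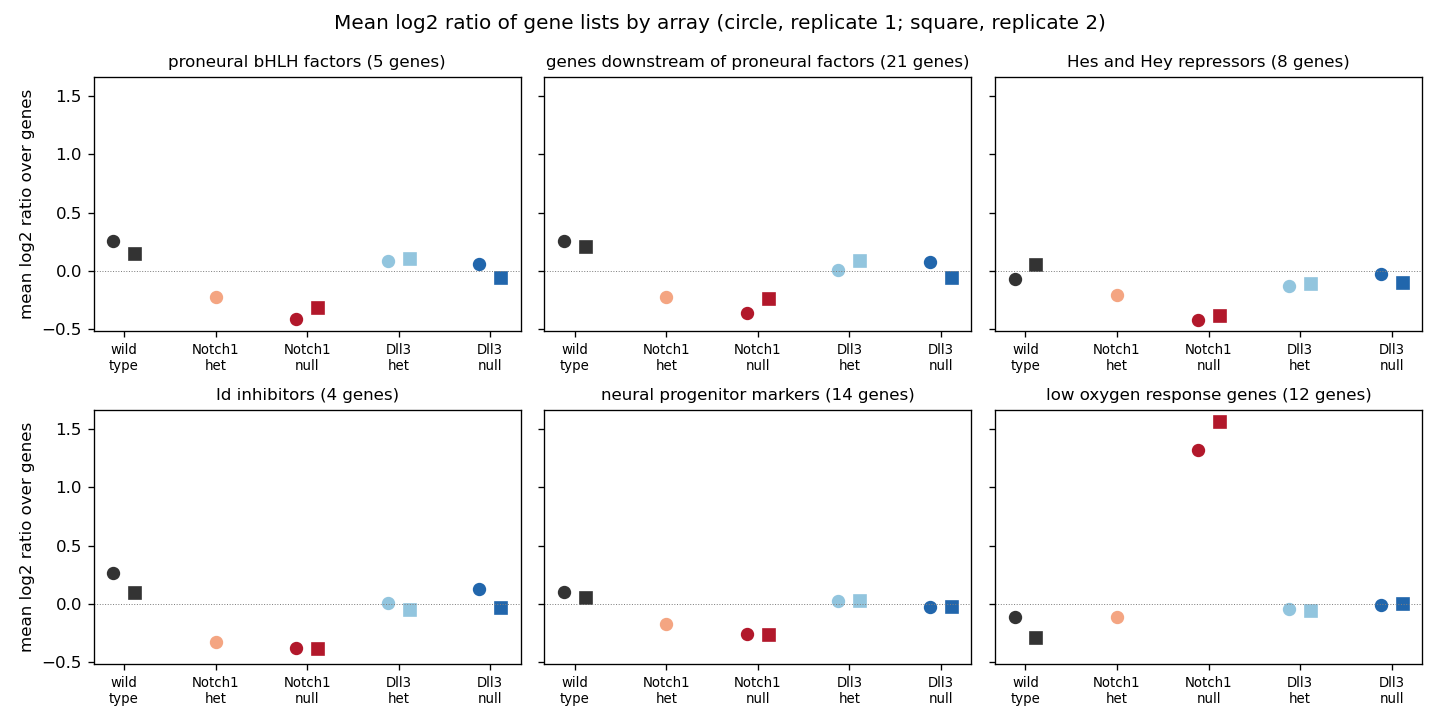
Mean log2 ratio over the genes of 6 lists in each array, by genotype group (circles replicate 1, squares replicate 2). The low oxygen response list is at 1.32 and 1.56 in Notch1 null and near 0 or below elsewhere. The proneural, downstream, progenitor, Hes and Hey, and Id lists are all lowest in the 3 Notch1 arrays.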

How the data were processed

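The deposited values are linear ratios; per the submitters' processing notes they derive from RMA (background correction, normalization between arrays and summary over probes), whose version is not stated. The median over arrays was exactly 1 for 19847 of 22690 probe sets and above 1 for 0, so the authors divided each by a number of its own, a step not given in the sources used here. Ratios were converted to log2 with no pseudocount, and 64 control probe sets were set aside. Symbols come from the platform annotation. One mean per genotype was fitted to 22626 probe sets over all 9 arrays by limma 3.58.1 under R 4.3.3. The functions were lmFit and eBayes, with 4 residual and 5.42 prior degrees of freedom. The fit gave 7 comparisons, plus 2 of Notch1 het with either Dll3 group, chosen after seeing the order of the levels. Notch1 null against Dll3 het was also fitted and is not in the counts given here. In it Neurog2, Neurod1 1426412_at and Neurod4 1418054_at were lower (limma adjusted p of 0.00536 to 0.0192). P-values were adjusted by Benjamini-Hochberg over all tested probe sets within a comparison, with a threshold of 0.05. The Notch1 het array is assumed to vary like the others.

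The members and gene lists were chosen with earlier results of these data known. Named are all members, the bHLH, E protein, Hes, Hey, Id and ligand lists, the 4 genes of lowest p in other lists, and the 3 probe sets most alike in pattern. Some further called genes of the other lists are also named. Replicate numbers were checked for pairing. The number of arrays limits the precision. A variance trend with level was not run, since ratios keep no level, and protein sequences were not used here.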

Additional observations from a re-analysis of the deposited data

How the results depend on the processing

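Of 56 member differences (8 probe sets in 7 comparisons), 7 were called, 2 of these in all alternatives run at the same threshold, and 23 changed sign under at least 1 alternative, 0 of them called. Calls in Notch1 null against wild type numbered 4 with all arrays and 2 to 4 with 1 array left out. In Notch1 het against wild type they numbered 1, with 0 after quantile normalization, with only the groups compared and with embryo sex in the fit, 2 at an adjusted p under 0.1, and 0 to 1 with 1 array left out. Between Notch1 null and Dll3 null they numbered 2, with 1 after quantile normalization, 0 with only the groups compared and 0 to 3 with 1 array left out. With 1 array left out, log2 differences that changed sign ranged from -0.031 to 0.11 for Neurod4 1418055_at and, for Neurog1 1438551_at, from -0.063 to 0.21 between Notch1 null and het. They ranged from -0.35 to 0.029 for Neurod1 1426412_at and -0.52 to 0.13 for Neurod4 1418054_at in Dll3 null against wild type, from -0.32 to 0.32 for Neurod4 1418054_at in Dll3 het against wild type (-0.043 with embryo sex in the fit), and, between Dll3 null and het, from -0.0055 to 0.14 for Neurog1 1438551_at and -0.0065 to 0.17 for Neurod1 1426412_at. The cause was not tested.

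The replicate number as a block left 4 member calls in Notch1 null against wild type, 1 in Notch1 het against wild type and 0 in the 4 comparisons with none otherwise, and gave 3, not 2, between Notch1 null and Dll3 null, where Neurod4 1418054_at passed (limma adjusted p = 0.0381). Nothing in the labels pairs the numbers, and replicate differences correlated between groups at -0.10 to 0.16. Over the whole array, calls ranged over the alternatives from 306, without Notch1 null replicate 2, to 3308, at an adjusted p under 0.1 (2139 with all arrays), for Notch1 null against wild type, 0 to 1477 (624) for Notch1 het, 0 to 1004 (403) between Notch1 null and het, 0 to 66 (20) for Dll3 null, 0 to 569 (110) for Dll3 het, 0 to 17 (0) between Dll3 null and het, and 9, with only these groups, to 2317 (1298) between Notch1 null and Dll3 null. A variance that follows the level could not be fitted, since ratios keep no level. The number of arrays, 1 or 2 per group, limits how small a difference could be called.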

Other observations

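The step from 1 to 2 targeted alleles was set side by side for both loci, a comparison added after the data were seen. For Neurod1 1426412_at the null minus het difference was -0.48 at Notch1 and 0.083 at Dll3 on the log2 scale, which differ by -0.56 ± 0.24 SE (limma adjusted p = 0.338). For Neurog2 the same steps were -0.19 and -0.25 (difference 0.064 ± 0.18, limma adjusted p = 0.916), and for Atoh1 they were -0.21 and -0.24 (difference 0.030 ± 0.28, limma adjusted p = 0.979). None of the 8 member probe sets passed this test by limma, 1 of them had an unadjusted p under 0.05, and 47 of 22626 probe sets passed over the whole array.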
